A study of Mus musculus with 4 samples.

Results

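Lrg1, Ackr1 and Tmem252 were followed cell by cell in brain tissue of young and old mice, as 3 of the 55487 genes in the count tables. They were chosen because their endothelial levels differed between these same libraries, so every level and ratio given here for them is a description and carries no test. The question put to the counts was whether a library with more of a transcript held more cells expressing it, more transcript in each such cell, or more cells of the vessel type where it is usually found. Lrg1 encodes a secreted leucine-rich glycoprotein of the acute phase response that is stored in neutrophil granules and modulates TGF-beta signalling in endothelial cells. Ackr1 encodes an atypical chemokine receptor of venules, which binds inflammatory chemokines without signalling through G proteins. Tmem252 encodes a small membrane protein whose function is little known. Venous endothelium, above all that of the small venules, is the place where leukocytes leave the blood, and it carries the selectins, adhesion molecules and chemokine-binding receptors that this step needs.

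Each of 4 libraries came from 1 combination of age and genotype on a C57BL/6J background, and the labels give the ages only as young or old. WT Cre mice carried the inducible Cdh5-Cre driver, which is active in endothelial cells under the VE-cadherin promoter, without a floxed Klf4 allele. EC-K4KO mice carried the same driver with floxed Klf4, and both genotypes received tamoxifen according to the methods of the study. Brain cells were enriched for endothelial cells before droplets were made, and the number of mice in a library was not given in the sources used here. There was 1 library per group, so no comparison here has a replicate. All intervals are of counting error alone, at 95% except for the share and level ratios described below. The values of the 4 libraries are listed throughout in the order young WT Cre, labelled young EC-K4KO, old WT Cre and labelled old EC-K4KO.

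The libraries held 5324, 8358, 7298 and 5442 barcodes with between 30655769 and 88812581 UMIs (unique molecular identifiers, each standing for 1 captured transcript molecule). Filters on depth, mitochondrial reads and doublets kept 20737 of 26422 barcodes, of which 22 or 23 per library had a barcode sequence that also occurred in another library. The 10171 endothelial-like cells numbered 2753, 3338, 2176 and 1904, with a median of 6324, 9904.5, 4682.5 and 3767 UMIs per cell. Klf4, the targeted gene, stood at 1709, 3280, 2095 and 3299 CPM (UMIs of a gene per 1000000 UMIs) in these cells, so at either age the library labelled EC-K4KO had more of it than its WT Cre counterpart. The exons removed by Cre were not given in the sources used here, and UMIs from the 3′ end of the gene could lie outside them. For this reason the 2 libraries are called the libraries labelled EC-K4KO, and every direction between genotypes rests on those labels.

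The 3 genes lie on different chromosomes of the mouse genome (GRCm38, GENCODE M21 models). Lrg1 (ENSMUSG00000037095.8) covers 2324 bases at chr17:56119678-56122001 on the minus strand, and Tmem252 (ENSMUSG00000048572.5) covers 8226 bases at chr19:24674008-24682233 on the plus strand. Ackr1 (ENSMUSG00000037872.5) covers 1865 bases at chr1:173331886-173333750 on the minus strand. The neighbouring gene Cadm3, a cell adhesion gene of neurons, lies on the same strand and overlaps Ackr1 at chr1:173333258-173333750, with 284 exon bases in common, so a read from that stretch cannot be assigned to 1 of the 2 by strand.

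The sequence upstream of each start is shown because the genes differed so much in where they were expressed. The stretches are from RefSeq (GRCm38.p6) and read 5′ to 3′ on the strand of the gene, with matches to the letters of 2 motifs in capitals. These are the CACCC box, the core of the sites bound by Krüppel-like factors such as Klf4, and AGGTCA, a site bound by nuclear receptors such as Nr2f2, a factor of venous identity. Lrg1 is shown at chr17:56122002-56122196, from 250 to 56 bases before its RefSeq start, Ackr1 at chr1:173333653-173333682, from 179 to 150 bases before it, and Tmem252 at chr19:24673758-24674007, the 250 bases before it.
Lrg1: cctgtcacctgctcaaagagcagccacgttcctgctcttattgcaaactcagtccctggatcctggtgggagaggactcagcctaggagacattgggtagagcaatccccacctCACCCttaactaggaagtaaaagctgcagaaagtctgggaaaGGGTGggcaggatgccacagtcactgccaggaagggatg
Ackr1: gttcgtttcctgAGGTCAttctgatcaggc
Tmem252: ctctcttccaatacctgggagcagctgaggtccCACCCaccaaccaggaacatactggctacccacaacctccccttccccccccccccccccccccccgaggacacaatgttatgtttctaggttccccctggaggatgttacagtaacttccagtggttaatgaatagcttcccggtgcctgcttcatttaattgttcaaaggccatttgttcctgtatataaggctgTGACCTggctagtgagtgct

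The Ackr1 window lies inside annotated transcripts over its whole length, so only the 30 bases round the AGGTCA match are printed. Within the 250 bases before each start and on both strands, the CACCC box was found 2 times for Lrg1, 2 times for Ackr1 and 1 time for Tmem252, and 52.0% of all 32851 mouse promoter windows of that length held it. AGGTCA was found 1 time each for Ackr1 and Tmem252 and 0 times for Lrg1, against 14% of all windows. The STAT letters TTCNNNGAA were found in 0 of the 3 windows (7.02% of all) and the C/EBP letters TTNNGNAA only for Ackr1, as 2 overlapping matches (36.8% of all). These are matches of letters in a window and do not show binding.

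Among 17 cell classes, Tmem252 was the most endothelial of the 3 genes. Its level in endothelial-like cells was 378, 876, 937 and 1288 CPM, and the next classes were unnamed clusters that themselves carried endothelial markers beside erythroid or B lineage markers. In young WT Cre the 23 T and NK-like cells stood at 406 CPM, with 80 of their 82 Tmem252 UMIs in 1 cell. In microglia-like cells, which should lack it, Tmem252 reached only 2.27 to 8.67 CPM. Averaged over the libraries, Ackr1 was highest in endothelial-like cells as well, at 17.5, 40.6, 135 and 246 CPM, followed by the small neuron-like class at 60.7, 79.7, 39.0 and 34.4 CPM. The 2 ranges overlapped, and in both young libraries the neuron-like value was the higher one. Cadm3 stood at 248, 257, 201 and 153 CPM in neuron-like cells and at 0.89 to 6.99 CPM in endothelial-like cells. In endothelial-like cells Ackr1 was far above Cadm3 in every library. Of 88 neuron-like cells with an Ackr1 UMI, 83 also held a Cadm3 UMI. Whether neuron-like Ackr1 UMIs came from the exon bases shared with Cadm3 was not tested.

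Lrg1 was highest in 2 classes on average over the libraries. Neutrophil-like cells held 294, 1055, 606 and 514 CPM of Lrg1, from 10, 16, 24 and 250 cells, and endothelial-like cells held 10.8, 42.6, 108 and 196 CPM. In young WT Cre, T and NK-like cells (39.6 CPM, all 8 UMIs in 1 cell) lay above endothelial-like cells. So did the unnamed cluster with endothelial and erythroid markers, at 11.2 CPM. Old cells labelled EC-K4KO also had Lrg1 in an unnamed cluster led by the granule genes Prtn3, Elane and Mpo, at 125 CPM with a UMI in 39 of 118 cells, against 0 to 40.7 CPM in the other libraries. The 152 CPM of its 55 border macrophage-like cells came almost wholly from 1 cell, which held 57 of the 58 UMIs. In neutrophil-like cells both other genes were at or near 0, with 0 Ackr1 UMIs in all 300 cells. The neutrophil-like order did not follow the endothelial order, since its highest value was in the library labelled young EC-K4KO and its intervals were wide (828 to 1324 CPM there, 188 to 438 CPM in young WT Cre).

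**Figure D1:**
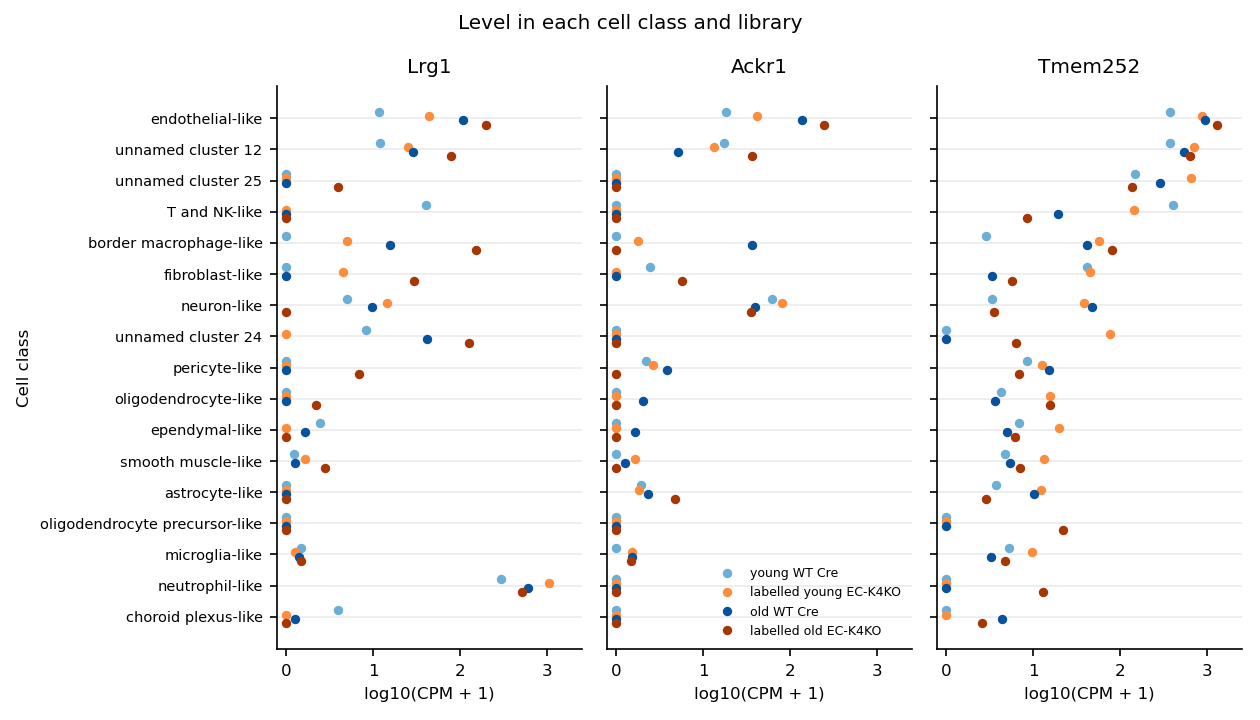
Levels of Lrg1, Ackr1 and Tmem252 as log10(CPM + 1) for each cell class, with 1 point per library. On average over the libraries Tmem252 is highest in endothelial-like cells (378 to 1288 CPM), Lrg1 in neutrophil-like cells (294 to 1055 CPM) and Ackr1 in endothelial-like and neuron-like cells. Ackr1 shares exon bases with Cadm3, a gene of neurons, so its neuron-like UMIs cannot be assigned with certainty.

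The library labelled old EC-K4KO also had the most neutrophil RNA among its endothelial-like cells. The 9 neutrophil markers summed to 7.59, 6.95, 11.5 and 168 CPM there, and the most abundant in the library labelled old EC-K4KO was S100a8 at 73.6 CPM, with 0 of the 9 markers at 0. In neutrophil-like cells of that library the same markers summed to 450592 CPM, and Lrg1 gave 0.114 UMIs for every 100 marker UMIs. At that ratio, the neutrophil RNA in its endothelial-like cells would carry 0.192 CPM of Lrg1, where 196 CPM were measured. The other libraries gave 0.0103 to 0.0279 CPM by the same reckoning. The reckoning takes a fixed ratio from neutrophil-like cells and leaves out the unnamed cluster led by granule genes. The source of the Lrg1 UMIs in endothelial-like cells was not tested.

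Endothelial-like cells were divided into segments with marker genes that did not include Lrg1, Ackr1 or Tmem252. Venous-like cells formed 2 sub-clusters. The Selp-led one (213 cells) reached at least 20 CPM and 25% of the highest sub-cluster's level for 9 of 9 venous markers, and the Icam1-led one (592 cells) for 8 of 9. Between them and the capillaries lay a capillary-venous sub-cluster of 941 cells that reached the same bounds for 6 of 9 venous and 6 of 7 capillary markers. The bounds were applied to UMIs summed over all libraries. Inside venous-like cells Selp was far lower in both young libraries than in the old ones, as given below. Its level in the Selp-led cells of each library is not given here. Neither venous-like sub-cluster is named after its first leading gene. In the Selp-led cells that gene was Ackr1, ahead of Selp, with Lrg1, Sele and Lcn2 also among the leading genes. The 3 genes followed here were nonetheless left out of the genes that built the clusters. Genes that vary with them were left in, so the segment differences in these genes are not independent of how the segments were drawn.

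Venous-like cells made up 4.76, 8.21, 9.42 and 10.2% of endothelial-like cells, or 131, 274, 205 and 195 cells. The Selp-led share was 1.09, 2.61, 2.16 and 2.57% and the Icam1-led share 3.67, 5.60, 7.26 and 7.67%. The young WT Cre library was lowest in both. The size of this gap depended on how the class was drawn, since the venous-like shares were 11.0, 14.9, 13.6 and 14.2% when cells were set one by one without Vcam1, Icam1 and Selp, and 15.7, 19.0, 16.6 and 16.7% with capillary-venous cells counted as venous-like. The capillary-venous share ran the other way with age, at 10.9, 10.8, 7.17 and 6.46%. Venous-like cells were the deepest endothelial cells, with a median of 20077, 22935.5, 12898 and 9596 UMIs against 6108.5, 9301, 4317 and 3532 outside them, so they supplied 12.2, 17.1, 20.6 and 21.8% of endothelial UMIs. Enrichment and dissociation can set such shares, and a change in the vessel bed cannot be told apart from a change in which cells were recovered.

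Lrg1 and Ackr1 were found mainly in venous-like cells in all 4 libraries. Venous-like cells held 91.0, 87.0, 86.4 and 78.6% of endothelial Lrg1 UMIs and 96.2, 94.2, 95.6 and 89.5% of endothelial Ackr1 UMIs. Tmem252 was spread wider, with 42.6, 37.1, 31.0 and 29.9% of its endothelial UMIs in venous-like cells. The venous share of all 3 genes was lowest in the library labelled old EC-K4KO, although that library had the largest venous share of cells.

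**Figure D2:**
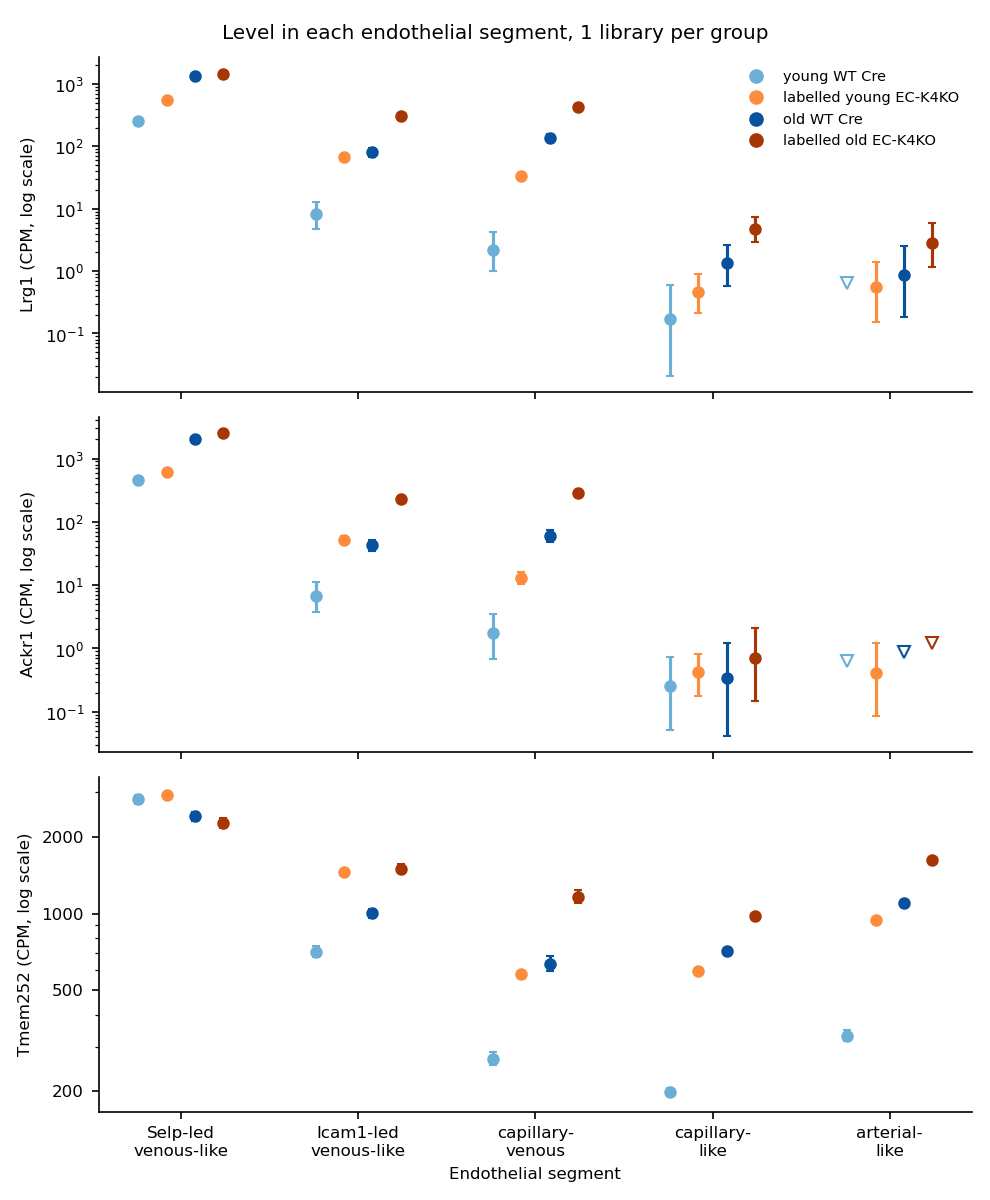
Levels of the 3 genes in CPM on a log axis in each endothelial segment, with 1 point per library and bars for 95% counting intervals, and open triangles at the level of 3 UMIs where 0 were counted. Lrg1 and Ackr1 fall from the Selp-led venous-like cells to near 0 in capillary-like and arterial-like cells, whereas Tmem252 is at 199 CPM or more in every named segment.

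Inside venous-like cells Lrg1 stood at 80.6, 217, 453 and 707 CPM (intervals 70.9 to 91.2, 206 to 227, 429 to 477 and 673 to 742). The 4 intervals did not overlap, and the order went from young WT Cre upward in the order of the libraries. The log2 ratio was 1.42 (1.23 to 1.62) for the library labelled young EC-K4KO over young WT Cre and 0.64 (0.54 to 0.75) for the library labelled old EC-K4KO over old WT Cre. For old over young it was 2.49 (2.30 to 2.69) in the WT Cre libraries and 1.71 (1.61 to 1.81) in the libraries labelled EC-K4KO. Below, these are called the young pair, the old pair, the WT Cre age pair and the EC-K4KO age pair. Each library enters 2 of the pairs, so the 4 ratios are not independent of each other.

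Ackr1 stood at 138, 224, 629 and 1011 CPM inside venous-like cells, again with intervals that did not overlap and in the same order. Its log2 ratios were 0.69 (0.54 to 0.85) and 0.68 (0.60 to 0.77) for the young and old pairs, and 2.18 (2.03 to 2.34) and 2.18 (2.09 to 2.27) for the WT Cre and EC-K4KO age pairs. Both age ratios thus exceeded both genotype ratios. Tmem252 stood at 1322, 1899, 1411 and 1764 CPM, with the 2 WT Cre libraries the lowest. Its log2 ratios inside venous-like cells were 0.52 (0.47 to 0.57), 0.32 (0.26 to 0.38), 0.09 (0.03 to 0.16) and -0.11 (-0.16 to -0.06) in the same order of pairs. The age ratios of Tmem252 inside venous-like cells thus had opposite signs in the 2 genotypes, but neither value was stable. Over the alternatives tried, the WT Cre age ratio ran from 0.03 to 0.70 and the EC-K4KO age ratio from -0.20 to 0.30, with 0.0033 under TMM scaling.

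Read against all genes, a 2-fold difference between 2 of these libraries was uncommon within a genotype pair and less so within an age pair. Counting genes whose mean reached 10 CPM inside venous-like cells, 0.39% and 0.796% were at least 2-fold higher in the young and old pairs, and 1.81% and 2.41% in the WT Cre and EC-K4KO age pairs. Lrg1 passed 2-fold in the young pair and both age pairs, Ackr1 in both age pairs, and Tmem252 in 0 of 4 pairs. Because the genes were chosen from endothelial ratios of the same libraries, nothing is read from these counts. The median log2 ratio of all genes inside venous-like cells was -0.04, -0.02, -0.18 and -0.15, so relative to the other genes the age ratios lie higher by the last 2 of these amounts.

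Outside venous-like cells the order of the genes changed. Tmem252 stood at 247, 665, 814 and 1155 CPM in these cells, and its log2 ratios were 1.43 (1.39 to 1.47), 0.50 (0.46 to 0.55), 1.72 (1.67 to 1.77) and 0.80 (0.76 to 0.83). Every one of them was above the ratio for the same pair inside venous-like cells, and the compartments lay furthest apart in the WT Cre age pair. The share of all genes at least 2-fold higher outside venous-like cells was 0.314% and 0.302% for the young and old pairs, and 1.66% and 1.65% for the WT Cre and EC-K4KO age pairs. Tmem252 passed 2-fold in the young pair and the WT Cre age pair.

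Tmem252 followed the same order of libraries in capillaries and arteries. Capillary-like cells held 199, 595, 712 and 975 CPM and arterial-like cells 331, 940, 1099 and 1622 CPM, with young WT Cre far below the other 3 libraries in both. In the Selp-led venous-like cells it stood at 2811, 2926, 2407 and 2265 CPM, the highest levels of the gene anywhere, and there the old libraries were the lower ones. Its log2 ratio there was -0.22 (-0.31 to -0.14) in the WT Cre age pair and -0.37 (-0.45 to -0.29) in the EC-K4KO age pair. Tmem252 in the Selp-led cells of the young WT Cre library exceeded that in its capillary-like cells by a wide margin, and the gap was smaller in the other 3 libraries, smallest in the old one labelled EC-K4KO.

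Lrg1 and Ackr1 were scarce outside venous-like cells, at 1.11, 6.69, 18.4 and 53.7 CPM for Lrg1 and 0.75, 2.83, 7.47 and 33.0 CPM for Ackr1. On the log2 scale their ratios were nonetheless larger there than inside, at 2.57, 1.54, 4.03 and 3.0 for Lrg1 and 1.88, 2.14, 3.28 and 3.54 for Ackr1. This order depended on how the class was drawn. With venous-like cells set cell by cell from the 9 markers, the Lrg1 ratios outside were 0.63 in the young pair and 1.17 in the WT Cre age pair, against 1.78 and 2.95 inside. The Ackr1 ratios outside were then 0.41 in the young pair, -0.33 in the WT Cre age pair and 0.68 in the EC-K4KO age pair, against 0.96, 2.53 and 2.43 inside. In the old pair the ratios outside stayed the larger ones, at 1.42 against 0.86 for Lrg1 and 1.42 against 0.87 for Ackr1. In the young pair and the WT Cre age pair both genes lay below the mean of 10 CPM set for the count of all genes. Most of this difference came from the capillary-venous cells, and clustering with doublets kept, which gave no such sub-cluster, left an Ackr1 log2 ratio of -0.47 outside in the EC-K4KO age pair. In the other cells outside venous-like ones, the Ackr1 log2 ratios were 0.28 (-0.84 to 1.58), -0.26 (-2.24 to 1.41), 0.65 (-0.84 to 2.09) and 0.10 (-1.77 to 1.46), so no Ackr1 difference was detectable at this depth. The Lrg1 ratios there were 0.30 (-0.59 to 1.28) and 0.60 (-0.07 to 1.27) for genotype and 2.05 (1.20 to 3.01) and 2.35 (1.66 to 3.07) for age.

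In CPM the range of the 2 genes was wider in Selp-led cells. As a fold between the lowest and highest library, it was widest in the capillary-venous cells, among segments with UMIs of both genes in every library. Lrg1 stood at 2.22, 33.1, 137 and 427 CPM and Ackr1 at 1.73, 13, 60.5 and 284 CPM in them. They held 3.25, 11.3, 11.2 and 19.4% of endothelial Lrg1 UMIs, and 1.56, 4.65, 3.94 and 10.3% of endothelial Ackr1 UMIs. The sub-cluster held 301, 361, 156 and 123 cells, and 6, 53, 18 and 35 of them had an Lrg1 UMI before thinning, so these levels rest on few cells.

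Lrg1 and Ackr1 were far higher in Selp-led than in Icam1-led venous-like cells in every library. In Selp-led cells Lrg1 stood at 256, 562, 1358 and 1465 CPM, and Ackr1 at 457, 621, 2054 and 2495 CPM. Here the age gap was wide and the old libraries were close to each other, with log2 ratios in the old pair of 0.11 (-0.01 to 0.23) for Lrg1 and 0.28 (0.19 to 0.37) for Ackr1. In Icam1-led cells Lrg1 stood at 8.13, 67.8, 80.3 and 309 CPM, and Ackr1 at 6.78, 52.2, 42.9 and 231 CPM. There the library labelled EC-K4KO was far above WT Cre at both ages, with Lrg1 log2 ratios of 3.02 (2.38 to 3.83) and 1.94 (1.69 to 2.20) and Ackr1 log2 ratios of 2.90 (2.20 to 3.80) and 2.42 (2.10 to 2.77). These levels rest on few cells. Ackr1 in Icam1-led cells came from 3, 34, 14 and 33 cells with a UMI, and the single highest cell held 8 of 15, 49 of 271, 35 of 95 and 75 of 354 UMIs, which the counting intervals do not reflect. Age ratios in Icam1-led cells were 3.27 (2.60 to 4.09) and 2.19 (1.99 to 2.39) for Lrg1 and 2.62 (1.87 to 3.55) and 2.14 (1.91 to 2.38) for Ackr1. In Selp-led cells the Lrg1 age ratios were 2.41 and 1.38 and the Ackr1 age ratios 2.17 and 2.01. Tmem252 in Icam1-led cells, at 707, 1456, 1002 and 1501 CPM, was likewise higher in both libraries labelled EC-K4KO, with ratios of 1.04 (0.96 to 1.12) and 0.58 (0.50 to 0.67). Its EC-K4KO age ratio there was 0.04 (-0.02 to 0.11).

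The share of cells with a UMI was next set beside the UMIs that each such cell held. At a fixed depth, a low level per cell leaves many expressing cells with no UMI. A lower level thus also lowers the share, so the number of expressing cells and their level are not fully separated. Each cell with at least 2000 UMIs was thinned to that number. Shallower cells were left out, which took 1, 1, 3 and 6 venous-like cells and 98, 102, 251 and 230 of the other endothelial-like cells. In venous-like cells 8.46, 22.0, 26.2 and 43.4% then had an Lrg1 UMI (intervals 4.30 to 14.6, 17.2 to 27.4, 20.3 to 32.9 and 36.2 to 50.8%). Without thinning the shares were 27.5, 52.9, 38.5 and 54.9%, which follow depth as well. An expressing cell held on average 1.36, 1.97, 2.92 and 2.66 Lrg1 UMIs after thinning. The share was thus lowest in young WT Cre and highest in the library labelled old EC-K4KO, whereas the level per expressing cell was higher with age in the WT Cre libraries and did not order the 2 old libraries.

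Ackr1 was present in 10.8, 21.6, 19.8 and 31.2% of thinned venous-like cells (20.6, 37.6, 28.3 and 40.5% unthinned), and an expressing cell held 1.93, 2.25, 5.48 and 4.41 UMIs. The level per expressing cell was more than 1 log2 unit apart between the WT Cre ages, with a log2 level ratio of 1.51 (0.77 to 2.30), while the share ratio of 0.88 (-0.26 to 2.11) spanned 0. In the genotype pairs it was the share that differed more, with log2 share ratios of 1.00 (-0.04 to 2.17) and 0.66 (-0.07 to 1.40) against level ratios of 0.23 (-0.57 to 1.07) and -0.31 (-0.69 to 0.06). All 4 of these intervals spanned 0. In the EC-K4KO age pair the division depended on the bound for expression, since the level ratio of 0.97 became 0.41 and the share ratio of 0.53 became 1.44 when an expressing cell needed at least 2 UMIs. After thinning to 1000 UMIs that level ratio was 0.48.

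For Lrg1 the share ratios inside venous-like cells were 1.38 (0.23 to 2.67), 0.73 (0.14 to 1.32), 1.63 (0.47 to 2.94) and 0.98 (0.40 to 1.56), above 0 in all 4 pairs. The level ratios were 0.53 (-0.47 to 1.63), -0.14 (-0.56 to 0.29), 1.10 (0.14 to 2.17) and 0.43 (-0.02 to 0.90), above 0 with their interval only in the WT Cre age pair. As a measure of free RNA in the droplets, 0.301, 0, 0 and 0% of microglia-like cells had an Lrg1 UMI and 0, 0.174, 0.236 and 0.14% an Ackr1 UMI after the same thinning, from cells with an original median of 4875 to 5625 UMIs. The venous-like shares were far above these.

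Tmem252 was in 64.6, 88.6, 83.7 and 88.4% of thinned venous-like cells, with 3.63, 4.30, 3.37 and 3.98 UMIs in an expressing cell. Outside them it was in 24.9, 55.6, 56.7 and 67.3% of cells, with 1.66, 2.20, 2.57 and 3.14 UMIs in an expressing cell. The young WT Cre library thus had the lowest share outside, and the level per expressing cell followed the order of the libraries. The log2 share ratios outside were 1.16, 0.25, 1.19 and 0.28 and the level ratios 0.41, 0.29, 0.63 and 0.51, each with an interval above 0. Their balance depended on the settings, since the level ratios in the young pair and the WT Cre age pair were 0.18 and 0.35 when an expressing cell needed at least 2 UMIs, and after thinning to 4000 UMIs the WT Cre age pair had a share ratio of 0.94 and a level ratio of 0.87. In microglia-like cells, 1.20, 2.26, 0.394 and 0.42% had a Tmem252 UMI, so the shares outside venous-like cells were far above the background. For Lrg1 and Ackr1 outside venous-like cells the shares were only 0.0792, 0.608, 0.814 and 1.89% and 0.0792, 0.439, 0.291 and 1.22%. For Ackr1 these intervals overlapped the microglia-like ones in all 4 libraries, and for Lrg1 in both young libraries.

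**Figure D3:**
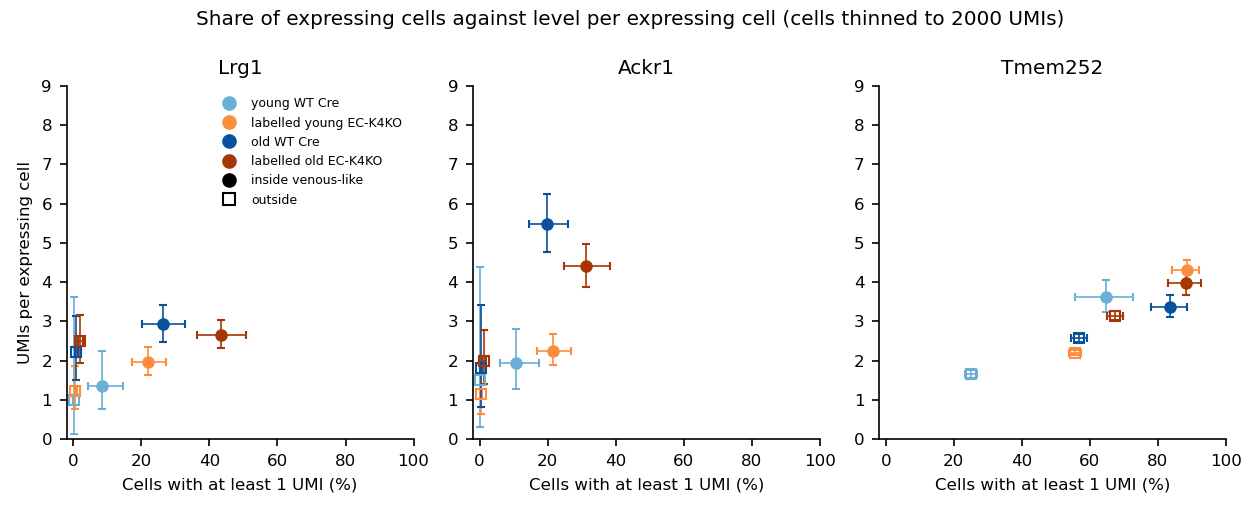
Share of cells with a UMI (percent) against UMIs per expressing cell after thinning to 2000 UMIs, inside and outside venous-like cells, with 1 point per library. Inside, expressing cells hold 1.93 and 2.25 Ackr1 UMIs in the young and 5.48 and 4.41 in the old libraries, a gap that depends on the bound for expression in the EC-K4KO age pair, and outside, Tmem252 separates young WT Cre from the rest by share (24.9% against 55.6 to 67.3%).

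In Selp-led cells most cells of every library held both genes before thinning, with an Lrg1 UMI in 83.3, 89.7, 89.4 and 98.0% and an Ackr1 UMI in 80.0, 79.3, 93.6 and 93.9%. After thinning, 31.0, 54.7, 73.9 and 83.3% of them had an Lrg1 UMI and 44.8, 51.2, 78.3 and 89.6% an Ackr1 UMI. The drop from the unthinned shares shows that a thinned share reflects the level per cell as well as the number of expressing cells. Tmem252 was in 93.1, 94.2, 97.8 and 89.6% of the Selp-led cells, so its share had little room to differ. In Icam1-led cells the Lrg1 share was 1.98, 6.95, 12.2 and 29.8% and the Ackr1 share 0.99, 8.02, 2.56 and 11.4%. For Ackr1 in Icam1-led cells, the interval for labelled old EC-K4KO (6.63 to 17.8%) lay above those of young WT Cre (0.0251 to 5.39%) and old WT Cre (0.703 to 6.44%). That of the library labelled young EC-K4KO (4.56 to 12.9%) overlapped both.

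Within venous-like cells Lrg1 and Ackr1 were concentrated in few cells. The 10% of cells with the most Lrg1 held 77.0, 53.6, 71.6 and 61.2% of its venous UMIs, and for Ackr1 the figures were 88.7, 70.3, 79.2 and 72.5%. Tmem252 was more even, at 46.8, 30.8, 39.8 and 34.6%. Cells with at least 5 UMIs of Lrg1, unthinned, made up 11.5, 29.9, 22.4 and 34.4% of venous-like cells.

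The same cells tended to hold Lrg1 and Ackr1. Over 794 thinned venous-like cells of the 4 libraries, 58.3% of those with an Lrg1 UMI had an Ackr1 UMI, against 8.84% of those without. By library the figures were 45.5 against 7.56%, 55.0 against 12.2%, 60.4 against 5.37% and 61.0 against 8.41%. Pooled over the libraries, the figures were 77.7 against 44.3% within Selp-led cells alone, 25 against 3.34% within Icam1-led cells, and 33.3 against 1.46% within capillary-venous cells. By library they were 55.6 against 40%, 61.7 against 38.5%, 85.3 against 58.3% and 95 against 62.5% in Selp-led cells. In Icam1-led cells they were 0 against 1.01%, 30.8 against 6.32%, 15.8 against 0.73% and 28.6 against 4.04%, from 2, 13, 19 and 42 cells with Lrg1. Tmem252 was in 94.7% of Lrg1-positive and 79.4% of Lrg1-negative venous-like cells. These are counts over cells of 4 libraries, and cells are not replicates.

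Another way of dividing the cells did not use clusters. Each endothelial-like cell was scored by 6 venous markers without Vcam1, Icam1 and Selp. In the cells at least 2 SD above the mean (128, 241, 133 and 151 cells), 8.73, 27.9, 39.1 and 59.9% had an Lrg1 UMI and 11.9, 25.3, 31.2 and 47.6% an Ackr1 UMI after thinning. In cells below the mean the Lrg1 share was 0, 0.158, 0.319 and 0.368%. Tmem252 ran from 65.1 to 84.4% in the highest scored cells and stood at 23.9, 54.3, 57.1 and 67.6% below the mean. Lrg1 and Ackr1 were thus most frequent at the highest venous score in every library, whereas Tmem252 was also frequent below the mean. The score is a range and not a cell type, and 607 cells lay near the line drawn at 1 SD.

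**Figure D4:**
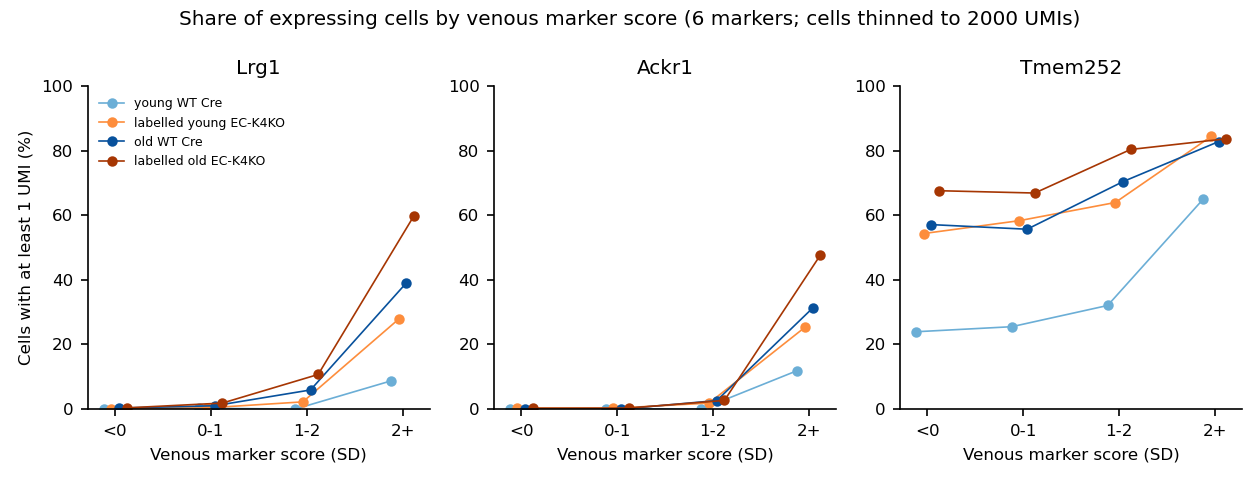
Percent of endothelial-like cells with a UMI after thinning to 2000 UMIs, by bin of a 6-marker venous score, with 1 line per library. At 2 SD or more the Lrg1 share runs from 8.73 to 59.9%, and below 0 SD the Tmem252 share runs from 23.9 to 67.6%.

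The difference of each gene over all endothelial-like cells was then split into a part from the segments' shares of UMIs and a part from the levels within segments. For Lrg1 the differences were 31.8, 88.4, 97.1 and 153.6 CPM, and the levels within segments made up 76.2, 76.5, 81.8 and 90.0% of them. For Ackr1 the differences were 23.1, 110.8, 117.9 and 205.7 CPM and the level parts 58.9, 69.2, 74.6 and 84.6%. For Tmem252 they were 498.1, 350.8, 559.4 and 412.1 CPM with level parts of 88.4, 92.8, 84.2 and 79.1%. The levels within segments thus gave the larger part of all 12 differences, and composition gave its largest part, 41.1%, for Ackr1 in the young pair. The segments were drawn with genes scaled within each library, which removes library means from the clustering. That choice can move a difference from composition to level, and the split was not computed with segments drawn another way.

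The segments behind those level parts were not the same. In the WT Cre age pair, Selp-led cells gave 52.7 of the 97.1 CPM for Lrg1, Icam1-led cells 8.38 and capillary-venous cells 16.5 CPM. In the old pair, Selp-led cells gave 7.22 of 88.4 CPM, Icam1-led cells 33.0 and capillary-venous cells 25.8 CPM. For Tmem252, capillary-like cells gave 178.7, 103.0, 218.9 and 158.1 CPM and arterial-like cells 105.9, 119.0, 156.7 and 134.4 CPM, while the level part of Selp-led cells was 4.99, -9.60, -19.3 and -41.9 CPM.

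**Figure D5:**
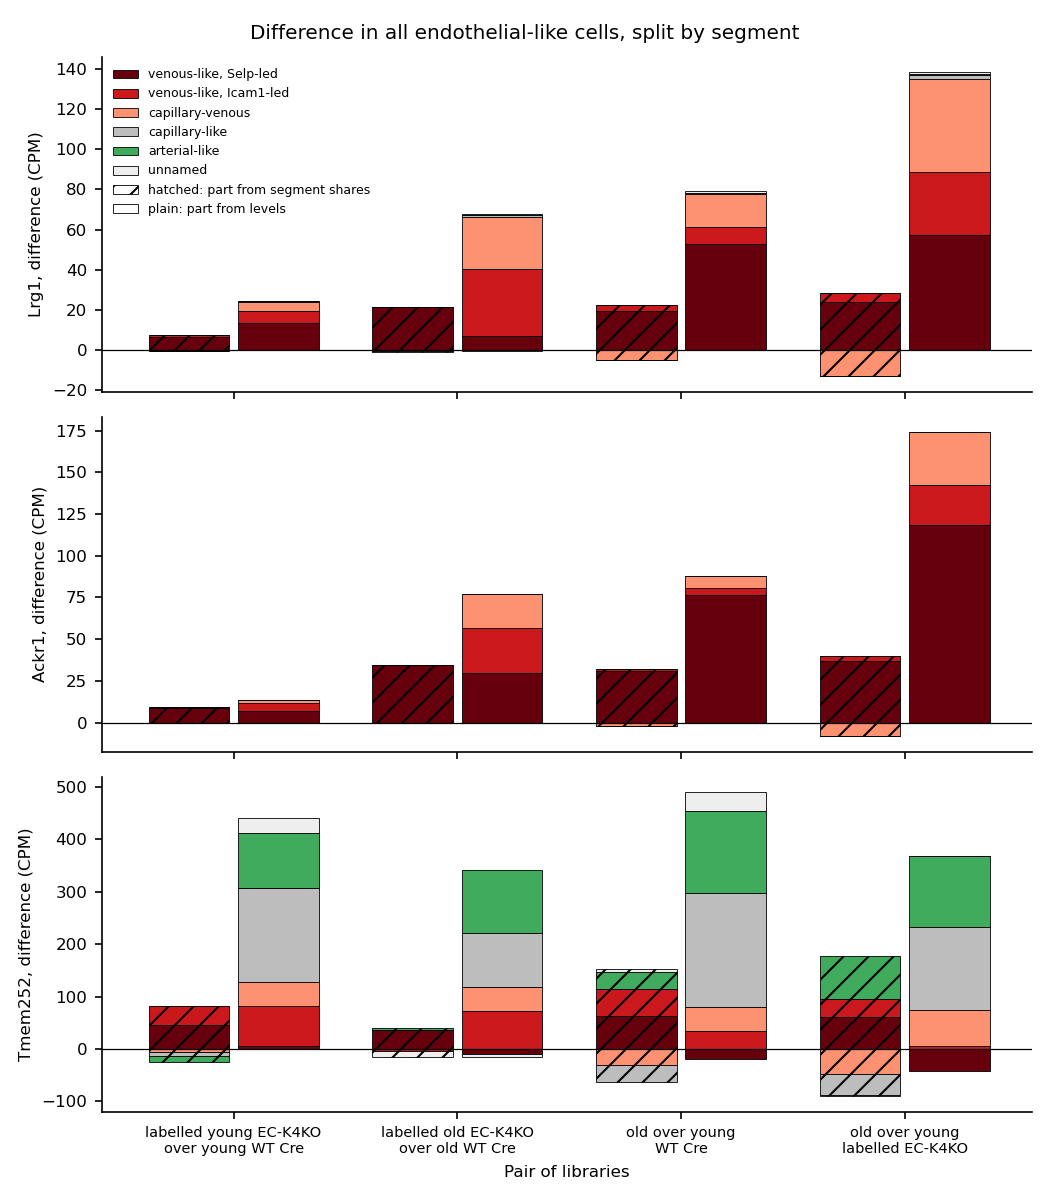
Difference in endothelial CPM between the libraries of each pair, split into the part from segment composition and the parts from levels within segments. The level parts make up 76.2 to 90.0% of the Lrg1 differences, 58.9 to 84.6% for Ackr1 and 79.1 to 92.8% for Tmem252.

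Signs of dissociation moved with part of the Tmem252 pattern. The 9 immediate early genes, which respond to tissue dissociation among other stimuli, summed to 8900, 12419, 14076 and 13428 CPM outside venous-like cells and to 17270, 19782, 14738 and 12358 CPM inside them. Their sum outside was lowest in young WT Cre, as was Tmem252 there, and inside it was lower in both old libraries. Haemoglobin and other erythroid transcripts summed to 151, 413, 155 and 1135 CPM inside venous-like cells, so both libraries labelled EC-K4KO were the higher of their age. Leaving out cells high in erythroid, neutrophil or microglia UMIs kept the sign of all 24 ratios inside and outside venous-like cells. The part of the immediate early genes in the Tmem252 levels was not tested.

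Lrg1 acts on TGF-beta and BMP signalling. The abundant target genes Id1 and Id3 of that pathway were highest in young WT Cre, while most of the 15 genes tested stayed within 2-fold in every pair. Id1, a target of BMP signalling in endothelium, stood at 1066, 494, 327 and 253 CPM inside venous-like cells, and Id3, another such target, at 1749, 1254, 563 and 563 CPM. Outside venous-like cells Id1 stood at 1417, 899, 906 and 811 CPM and Id3 at 1429, 1190, 1021 and 1073 CPM, so the gap was smaller there. Of the 17 genes listed for the pathway, 15 were abundant enough, and Id1 (young pair, WT Cre age pair) and Id3 (both age pairs) were those at least 2-fold lower inside venous-like cells, against 0.555% and 0.695% of all genes in the young and old pairs, and 2.81% and 2.29% in the WT Cre and EC-K4KO age pairs. The list medians were -0.26, -0.07, -0.09 and 0.02 beside -0.04, -0.02, -0.18 and -0.15 for all genes. The co-receptor Eng stood at 460, 428, 432 and 480 CPM. Outside venous-like cells 1 of the 15, the inhibitory Smad7, was at least 2-fold higher in the EC-K4KO age pair (1.65% of all genes), and it stood there at 284, 229, 472 and 529 CPM.

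Of the 12 listed genes of IL-6 and STAT3 signalling, a pathway known to induce Lrg1, Pim1 and Bcl3, targets of STAT3 and of inflammatory signals, were at least 2-fold higher in both age pairs inside venous-like cells (1.81% and 2.41% of all genes). In the genotype pairs 0 of 12 were so, near the share of all genes (0.39% and 0.796%). The list median inside venous-like cells was 0.02, 0.18, 0.25 and 0.54. Outside venous-like cells 4 of 12 were at least 2-fold higher in the WT Cre age pair (1.66% of all genes), with a list median of 0.83 against -0.17 for all genes, and 1 of 12, Cebpd, in the EC-K4KO age pair (1.65% of all genes). Cebpd, an acute phase transcription factor, stood at 290, 400, 589 and 923 CPM outside and at 1208, 1262, 1508 and 2143 CPM inside venous-like cells. Stat3 itself stood at 115, 156, 212 and 247 CPM outside and 239, 286, 368 and 411 CPM inside, and Socs3, its feedback inhibitor, at 102, 124, 198 and 192 CPM outside but 406, 306, 229 and 242 CPM inside.

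Among genes related to Ackr1, the other atypical receptors did not follow its order of libraries inside venous-like cells, while the abundant ligands did. Of 4 other atypical chemokine receptors, 2 were abundant enough and 0 passed 2-fold in any pair in either compartment. Inside, 0.39, 0.796, 1.81 and 2.41% of all genes were at least 2-fold higher and 0.555, 0.695, 2.81 and 2.29% lower in the 4 pairs. Outside venous-like cells, 0.314, 0.302, 1.66 and 1.65% were higher and 0.268, 0.326, 0.719 and 0.711% lower. A count of 0 of 2 is near these shares, so nothing is read from it. Ackr3, a scavenger of Cxcl12, stood at 92.1, 71.0, 62.0 and 38.9 CPM inside venous-like cells, lowest in the library where Ackr1 was highest, and Ccrl2 at 37.1, 51.2, 47.0 and 62.8 CPM. Ccrl2 was lowest and highest in the same libraries as Ackr1, with the middle libraries in the other order. Ackr2 was at 0 in 3 libraries and 0.427 CPM in the fourth. Among 8 chemokines of the kinds Ackr1 binds, 2 were abundant enough inside venous-like cells: the neutrophil attractant Cxcl1 stood at 338, 519, 603 and 833 CPM there and Cxcl2 at 89.8, 143, 253 and 290 CPM. Outside venous-like cells Cxcl1 stood at 28.8, 26.4, 87.5 and 101 CPM and Cxcl2 at 6.42, 9.49, 66.2 and 57.6 CPM, so both were at least 2-fold higher in the WT Cre age pair (1.66% of all genes) and the EC-K4KO age pair (1.65%). Inside, Cxcl2 but not Cxcl1 was at least 2-fold higher in both age pairs (1.81% and 2.41% of all genes). Ccl2 did not exceed 5.78 CPM in either compartment.

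Adhesion molecules of venules set the Ackr1 and Lrg1 values beside other genes of the same cells. Selp, the P-selectin on which leukocytes roll, stood at 6.07, 16.8, 139 and 169 CPM inside venous-like cells, and Sele, its inducible relative E-selectin, at 12.2, 39.3, 180 and 236 CPM. Both followed the order of libraries seen for Lrg1 and Ackr1. Vcam1 stood at 1307, 1315, 1973 and 3119 CPM, and Icam1 at 1344, 978, 2475 and 1824 CPM, so Icam1 was lower in both libraries labelled EC-K4KO. Of the 8 listed adhesion genes 7 were abundant enough, and 2, 0, 2 and 3 of them were at least 2-fold higher in the 4 pairs, against 0.39, 0.796, 1.81 and 2.41% of all genes. Cd34 (420, 568, 446 and 482 CPM) and Podxl (338, 390, 370 and 424 CPM), ligands of selectins, differed little.

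The markers that drew the venous-like class were not level between libraries. Of the 9, Selp was at least 2-fold higher in the young pair and both age pairs and Vcam1 in the EC-K4KO age pair, and 0 were lower. Of all genes inside venous-like cells, 0.39, 0.796, 1.81 and 2.41% were at least 2-fold higher in the 4 pairs and 0.555, 0.695, 2.81 and 2.29% at least 2-fold lower, which is also the background for the capillary and arterial markers named next. Nr2f2, the venous identity factor, stood at 324, 227, 228 and 266 CPM, Vwf at 877, 783, 1007 and 1224 CPM, Slc38a5 at 431, 582, 648 and 661 CPM and Ephb4 at 56.3, 46.1, 34.9 and 30.4 CPM. Il1r1 (184, 202, 194 and 287 CPM) was highest in the library labelled old EC-K4KO. Of the 7 capillary markers 0 passed 2-fold in any pair inside venous-like cells, with list medians of -0.02, -0.44, -0.46 and -0.67, and of the 11 arterial markers 5 or 6 were abundant enough there. Mgp was at least 2-fold higher in both age pairs, Bmx in both genotype pairs and Hey1 in the young pair, while Stmn2 was at least 2-fold lower in both genotype pairs.

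Across 20 sums of 5 endothelial segments in 4 libraries, the gene most like Lrg1 among 8423 genes was Ackr1, and the gene most like Ackr1 was Lrg1, with a Pearson r of 0.984 of log2(CPM + 1). Next to Lrg1 came Lcn2 (0.974), Nek6, C4b and Apobec3, and next to Ackr1 came Serpina3f (0.968), Apobec3, Ifitm1 and Cd302. Tmem252 was most like Cebpd (0.933), Stat3 (0.910), Pfkfb3 (0.899), Osmr (0.889) and Sbno2 (0.879), and its r with Lrg1 was 0.715 and with Ackr1 0.695. The sums share their libraries and depth, so these values are a description.

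Across 66 sums of all classes and segments with at least 20 cells, Lrg1 was most like Lcn2 (0.916), a neutrophil granule and acute phase protein, followed by Gm5127, Sele, Bst1 and Ackr1 (0.723). Ackr1 was most like Sele (0.844), followed by Adgrg6, Gm38070, Gm5127 and Icam5. Tmem252 was most like Srarp (0.944), Grrp1, She, Vwf and Acer2, several of which are endothelial genes. The correlation of Lrg1 and Ackr1 was thus lower over all classes than over endothelial segments, although each still ranked 5 or 6 of 10394 genes for the other. Outside the endothelium Lrg1 was on average highest in neutrophil-like cells. Ackr1 UMIs were highest in neuron-like cells, where they were not told apart from reads of the overlapping gene Cadm3.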

How the data were processed

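Brain cells of 4 droplet libraries, 1 per group, were analysed from raw UMI counts per gene and barcode as the authors deposited them. The headers name Cell Ranger 6.0.2 as the counting tool. The submitters' processing notes name mm10, GRCm38 and Seurat without roles. Cells with at least 500 genes, 1000 UMIs and at most 10% mitochondrial UMIs were kept. The Scrublet threshold marked few cells, so the highest doublet scores were removed instead (0.8% per 1000 cells), 147 to 385 per library. Cells were clustered with scanpy 1.11.5 on 2000 variable genes, 30 components and Leiden resolution 1. Classes were named where at least 50% and at least 3 markers of exactly 1 list reached 20 CPM and 25% of their highest cluster level. Endothelial-like cells were sub-clustered with genes scaled within each library, chosen after ordinary sub-clusters split by library. The naming rule was set after the clusters were seen. The 3 genes were left out of the variable genes. They, the marker lists and the pathway lists were chosen with earlier results of these data known.

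CPM are UMI sums over the library total of the same cells. Log2 ratios use 0.5 added UMIs and exact conditional binomial intervals, levels exact Poisson intervals and shares exact Clopper-Pearson intervals, all at 95% and for counting error only. Intervals of share and level ratios after thinning combine opposite ends of the 95% intervals of both libraries, so they are wider than 95% intervals. No test was made, since each group holds 1 library. For each pair the share of genes past 2-fold was taken over genes whose mean reached 10 CPM. A difference over all endothelial-like cells was split exactly into the difference in each segment's share of UMIs times its mean level and the difference in level times its mean share. TMM factors came from edgeR 4.0.16, as an alternative. Of 55487 gene identifiers, 55094 matched GENCODE M21. The calculations were tested on simulated data. Text names the 3 genes, Klf4, the venous markers except 1 that is not reported here, the 3 most abundant genes of each pathway list and the 5 genes most like each of the 3. Cadm3 overlaps Ackr1. Pim1, Bcl3, Prtn3, Elane, Mpo, S100a8, Smad7, Selp, Sele, Mgp, Bmx, Hey1 and Stmn2 were named, where outside that rule, after their values were seen.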

Additional observations from a re-analysis of the deposited data

Results flagged for a closer look

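Tmem252 inside venous-like endothelial cells differed with age in opposite directions in the 2 genotypes. The log2 ratio of old over young was 0.094 in the WT Cre libraries and -0.11 in the libraries labelled EC-K4KO, each with a counting interval that did not reach 0. The difference between the 2 was not tested, because each group holds 1 library. The levels behind it went from 1322 (young) to 1411 CPM (old) for WT Cre, and from 1899 (young) to 1764 CPM (old) for the EC-K4KO labels. The sign turn did not hold under every alternative, since the EC-K4KO age ratio was 0.0033 with TMM factors, 0.11 with doublets kept, 0.14 and 0.24 with venous-like cells set cell by cell, and 0.30 with capillary-venous cells counted as venous-like. The WT Cre ratio moved as well, to 0.25 with TMM factors, 0.47 with doublets kept, 0.45 and 0.62 with venous-like cells set cell by cell, and 0.70 with capillary-venous cells counted as venous-like. Relative to the median of all genes both ratios were above 0, at 0.28 and 0.04. In the Selp-led venous-like cells alone both ratios were below 0, at -0.22 and -0.37, and in the Icam1-led cells they were 0.50 and 0.04.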

How the results depend on the processing

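The counting intervals do not cover differences between mice, and with 1 library per group neither genotype nor age can be told apart from the library. Depth limits Lrg1 and Ackr1 outside venous-like cells, where few cells held a UMI. No paired analysis was possible because each group holds 1 library. Of 536 values recomputed under an alternative, 336 moved by less than their counting interval, 191 moved by more and 9 changed sign. Without the barcodes shared between libraries, an alternative chosen after seeing the data, all 64 values stayed within their interval. The sub-clustering with doublets kept gave no capillary-venous sub-cluster. The split into composition and level was computed under the main choices alone. The log2 ratios, shares and counts that moved or changed sign are given here by alternative, with inside and outside meaning venous-like cells and the other endothelial-like cells, and the cause of each change was not tested. With cells weighted equally, Lrg1 inside was 1.89 in the young genotype pair and 1.15 in the EC-K4KO age pair. Ackr1 inside was 1.04 in the young genotype pair, 0.52 in the old genotype pair, 2.01 in the WT Cre age pair and 1.49 in the EC-K4KO age pair. Tmem252 inside was 0.76 in the young genotype pair and 0.24 in the WT Cre age pair and Tmem252 outside was 1.49 in the young genotype pair and 1.77 in the WT Cre age pair. Ackr1 outside was 1.43 in the old genotype pair and 2.51 in the EC-K4KO age pair and Lrg1 outside was 2.25 in the EC-K4KO age pair. With doublets kept, Lrg1 inside was 1.82 in the young genotype pair, 3.13 in the WT Cre age pair and 2.05 in the EC-K4KO age pair. Ackr1 inside was 1.01 in the young genotype pair, 2.72 in the WT Cre age pair and 2.46 in the EC-K4KO age pair. Tmem252 inside was 0.72 in the young genotype pair, 0.47 in the WT Cre age pair and 0.11 in the EC-K4KO age pair. Lrg1 outside was 1.67 in the young genotype pair, 1.82 in the old genotype pair, 1.47 in the WT Cre age pair and 1.62 in the EC-K4KO age pair. Tmem252 outside was 1.53 in the young genotype pair and 1.78 in the WT Cre age pair and Ackr1 outside was 0.28 in the old genotype pair, 0.61 in the WT Cre age pair and -0.47 in the EC-K4KO age pair. The venous-like share of cells was 7.91% in young WT Cre and 10.7% in the young EC-K4KO label. With venous-like cells set cell by cell from 9 markers, Lrg1 inside was 1.78 in the young genotype pair, 0.86 in the old genotype pair, 2.95 in the WT Cre age pair and 2.03 in the EC-K4KO age pair. Ackr1 inside was 0.96 in the young genotype pair, 0.87 in the old genotype pair, 2.53 in the WT Cre age pair and 2.43 in the EC-K4KO age pair. Tmem252 inside was 0.70 in the young genotype pair, 0.39 in the old genotype pair, 0.45 in the WT Cre age pair and 0.14 in the EC-K4KO age pair. Lrg1 outside was 0.63 in the young genotype pair, 1.17 in the WT Cre age pair and 1.96 in the EC-K4KO age pair. Ackr1 outside was 0.41 in the young genotype pair, 1.42 in the old genotype pair, -0.33 in the WT Cre age pair and 0.68 in the EC-K4KO age pair and Tmem252 outside was 1.49 in the young genotype pair. The venous-like share of cells was 8.72% in young WT Cre, 12.2% in the young EC-K4KO label, 13.6% in old WT Cre and 13.4% in the old EC-K4KO label. With the same rule without Vcam1, Icam1 and Selp, Lrg1 inside was 1.80 in the young genotype pair, 0.80 in the old genotype pair, 3.19 in the WT Cre age pair and 2.20 in the EC-K4KO age pair. Ackr1 inside was 0.99 in the young genotype pair, 0.80 in the old genotype pair, 2.79 in the WT Cre age pair and 2.60 in the EC-K4KO age pair. Tmem252 inside was 0.74 in the young genotype pair, 0.62 in the WT Cre age pair and 0.24 in the EC-K4KO age pair. Lrg1 outside was 0.79 in the young genotype pair, 1.25 in the old genotype pair, 1.47 in the WT Cre age pair and 1.93 in the EC-K4KO age pair. Ackr1 outside was 0.42 in the young genotype pair, 1.44 in the old genotype pair, -0.40 in the WT Cre age pair and 0.62 in the EC-K4KO age pair. Tmem252 outside was 1.49 in the young genotype pair and 0.75 in the EC-K4KO age pair. The venous-like share of cells was 11.0% in young WT Cre, 14.9% in the young EC-K4KO label, 13.6% in old WT Cre and 14.2% in the old EC-K4KO label. With capillary-venous cells counted as venous-like, an alternative chosen after seeing the data, Lrg1 inside was 1.86 in the young genotype pair, 0.81 in the old genotype pair, 3.30 in the WT Cre age pair and 2.24 in the EC-K4KO age pair. Ackr1 inside was 1.05 in the young genotype pair, 0.80 in the old genotype pair, 2.90 in the WT Cre age pair and 2.66 in the EC-K4KO age pair. Tmem252 inside was 0.83 in the young genotype pair, 0.43 in the old genotype pair, 0.70 in the WT Cre age pair and 0.30 in the EC-K4KO age pair. Lrg1 outside was 0.30 in the young genotype pair, 0.60 in the old genotype pair, 2.05 in the WT Cre age pair and 2.35 in the EC-K4KO age pair. Ackr1 outside was 0.28 in the young genotype pair, -0.26 in the old genotype pair, 0.65 in the WT Cre age pair and 0.10 in the EC-K4KO age pair. Tmem252 outside was 1.5 in the young genotype pair, 0.46 in the old genotype pair, 1.79 in the WT Cre age pair and 0.76 in the EC-K4KO age pair. The venous-like share of cells was 15.7% in young WT Cre, 19.0% in the young EC-K4KO label, 16.6% in old WT Cre and 16.7% in the old EC-K4KO label. With TMM factors, Tmem252 inside was 0.58 in the young genotype pair, 0.25 in the WT Cre age pair and 0.0033 in the EC-K4KO age pair and Lrg1 inside was 1.82 in the EC-K4KO age pair. Ackr1 inside was 2.29 in the EC-K4KO age pair and Tmem252 outside was 1.48 in the young genotype pair, 1.85 in the WT Cre age pair and 0.88 in the EC-K4KO age pair. Without cells high in erythroid, neutrophil or microglia UMIs, Ackr1 inside was 0.59 in the old genotype pair and 2.35 in the WT Cre age pair and Tmem252 outside was 1.48 in the young genotype pair and 0.55 in the old genotype pair. Lrg1 outside was 2.02 in the old genotype pair and 3.56 in the EC-K4KO age pair and Ackr1 outside was 2.57 in the old genotype pair and 4.0 in the EC-K4KO age pair. The venous-like share of cells was 12.4% in the old EC-K4KO label. With the stricter cell filter, Tmem252 inside was 0.25 in the old genotype pair and 0.19 in the WT Cre age pair and Ackr1 inside was 2.35 in the WT Cre age pair. Tmem252 outside was 1.37 in the young genotype pair and 0.86 in the EC-K4KO age pair. At the higher sub-clustering resolution, Tmem252 inside was 0.25 in the old genotype pair and -0.20 in the EC-K4KO age pair. The venous-like share of cells was 3.85% in young WT Cre, 6.62% in the young EC-K4KO label, 7.44% in old WT Cre and 8.19% in the old EC-K4KO label. With expression taken as at least 2 UMIs, the log2 share ratio of Lrg1 inside was 2.95 in the WT Cre age pair and the log2 share ratio of Ackr1 inside was 1.44 in the EC-K4KO age pair. The log2 level ratio of Ackr1 inside was 0.41 in the EC-K4KO age pair and the log2 share ratio of Tmem252 outside was 1.75 in the young genotype pair, 0.39 in the old genotype pair, 1.94 in the WT Cre age pair and 0.57 in the EC-K4KO age pair. The log2 level ratio of Tmem252 outside was 0.18 in the young genotype pair, 0.35 in the WT Cre age pair and 0.40 in the EC-K4KO age pair. With cells thinned to 1000 UMIs, the log2 level ratio of Ackr1 inside was 0.48 in the EC-K4KO age pair and the log2 level ratio of Tmem252 outside was 0.19 in the young genotype pair, 0.18 in the old genotype pair, 0.41 in the WT Cre age pair and 0.41 in the EC-K4KO age pair. The log2 share ratio of Tmem252 outside was 0.36 in the old genotype pair. With cells thinned to 4000 UMIs, the log2 share ratio of Tmem252 outside was 0.96 in the young genotype pair, 0.94 in the WT Cre age pair and 0.15 in the EC-K4KO age pair. The log2 level ratio of Tmem252 outside was 0.55 in the young genotype pair, 0.87 in the WT Cre age pair and 0.69 in the EC-K4KO age pair. With genes kept from 50 CPM upward, the number of genes at least 2-fold higher inside was 8 in the young genotype pair, 10 in the old genotype pair, 55 in the WT Cre age pair and 63 in the EC-K4KO age pair. The number of genes at least 2-fold higher outside was 9 in the young genotype pair, 10 in the old genotype pair, 63 in the WT Cre age pair and 49 in the EC-K4KO age pair. With no filter on low counts, the number of genes at least 2-fold higher inside was 1713 in the young genotype pair, 2396 in the old genotype pair, 2541 in the WT Cre age pair and 2623 in the EC-K4KO age pair. The number of genes at least 2-fold higher outside was 1926 in the young genotype pair, 2792 in the old genotype pair, 2716 in the WT Cre age pair and 3304 in the EC-K4KO age pair.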
